A study of Mus musculus with 4 samples.

Results

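The 10 genes described here encode ligands and receptors of vessel growth and vessel maintenance: Vegfa, Vegfc, Kdr, Flt1, Flt4, Apln, Aplnr, Angpt1, Angpt2 and Tek. They were chosen by symbol, and each symbol named exactly 1 of the 31054 features counted. The 4 libraries were single-cell RNA libraries of lung from male C57BL/6 mice aged 19 months, 2 from mice given BPTES for 1 month and 2 from mice given DMSO, its vehicle, for the same time. BPTES is a small-molecule inhibitor of glutaminase, the enzyme that turns glutamine into glutamate. Lung tissue was digested with Liberase for 1 hour, cells were sorted by CD45, the surface protein of leukocytes, and each library was a mixture of 20000 CD45-negative and 9000 CD45-positive cells. Because that mixture was fixed by the sort, the share of a gene's RNA that lies in a cell class describes these libraries and not the intact lung. The labels give 2 numbered samples per group and do not say whether each came from its own mouse, so p-values measure the spread between these libraries.

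VEGF-A, the product of Vegfa, is secreted by alveolar epithelium and other cells and acts on endothelial cells through VEGFR2 (Kdr), the main signalling receptor, while VEGFR1 (Flt1) binds the same ligand tightly, signals weakly and can trap it. VEGF-C (Vegfc) acts mostly through VEGFR3 (Flt4), the receptor that lymphatic endothelium depends on. Apelin (Apln) is a peptide that acts on a G protein-coupled receptor, Aplnr, and in lung capillaries the peptide and the receptor are known to mark separate endothelial types, the aerocyte and the general capillary cell. Angiopoietin 1 (Angpt1) activates the receptor TIE2 (Tek) and stabilises vessels, and angiopoietin 2 (Angpt2) binds the same receptor and, depending on context, opposes it.

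Promoter sequence is shown for Flt1, Kdr and Tek, the receptor genes of VEGF-A and the angiopoietins, because their levels across endothelial classes are compared below, and the Flt4 window is left out because it lies inside the gene model of the annotation used here. Each line gives the 250 bases before the RefSeq transcription start (GRCm38.p6), 5′ to 3′ on the strand of the gene, and capitals mark GGAAGT, a form of the binding core of ETS transcription factors, or its reverse complement ACTTCC, a motif picked after these sequences were seen. The Flt1 window is chr5:147726012-147726261 on the minus strand. The Kdr window is chr5:75978456-75978705 on the minus strand. The Tek window is chr4:94739039-94739288 on the plus strand.
Flt1: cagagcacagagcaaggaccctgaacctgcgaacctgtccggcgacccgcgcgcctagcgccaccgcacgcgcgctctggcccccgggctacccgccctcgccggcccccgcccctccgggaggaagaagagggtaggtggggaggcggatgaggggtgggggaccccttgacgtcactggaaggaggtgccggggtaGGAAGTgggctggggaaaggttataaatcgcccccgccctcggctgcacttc
Kdr: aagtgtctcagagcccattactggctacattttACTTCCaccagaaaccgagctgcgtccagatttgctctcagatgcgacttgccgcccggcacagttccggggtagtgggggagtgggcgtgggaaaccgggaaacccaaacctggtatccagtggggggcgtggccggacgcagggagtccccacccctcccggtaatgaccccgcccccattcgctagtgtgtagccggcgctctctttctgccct
Tek: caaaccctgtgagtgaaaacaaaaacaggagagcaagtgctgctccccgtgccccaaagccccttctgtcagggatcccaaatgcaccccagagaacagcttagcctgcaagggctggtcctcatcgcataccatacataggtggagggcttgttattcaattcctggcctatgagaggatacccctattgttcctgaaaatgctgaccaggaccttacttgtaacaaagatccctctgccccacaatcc

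The letters GGAAGT occurred 1 time on the gene's strand in the Flt1 window, 52 bases before the start, and 1 time on the other strand in the Kdr window, 217 bases before it. Neither orientation was found in the Tek window. Over all 32851 RefSeq promoter windows of the same length, 19.7% held the motif on either strand, and a match describes the letters only. The windows differed in base composition, with 70.4% G or C for Flt1, 61.6% for Kdr and 51.2% for Tek.

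In the GENCODE M21 annotation of GRCm38, all 10 are protein-coding genes. Vegfa (ENSMUSG00000023951) lies at chr17:46016993-46032369 on the minus strand, and Vegfc (ENSMUSG00000031520) lies at chr8:54077606-54187096 on the plus strand. Apln (ENSMUSG00000037010) lies at chrX:48025146-48034853 on the minus strand, and Aplnr (ENSMUSG00000044338) lies at chr2:85136225-85139923 on the plus strand. Angpt1 (ENSMUSG00000022309) lies at chr15:42424723-42676977 on the minus strand, and Angpt2 (ENSMUSG00000031465) lies at chr8:18690263-18741562 on the minus strand. Kdr (ENSMUSG00000062960) lies at chr5:75932827-75978458 on the minus strand, Flt1 (ENSMUSG00000029648) lies at chr5:147561604-147726011 on the minus strand, and Flt4 (ENSMUSG00000020357) lies at chr11:49609263-49652739 on the plus strand. Tek (ENSMUSG00000006386) lies at chr4:94739289-94874976 on the plus strand. Reads came from 3′ libraries and were counted per gene. The transcript forms of a gene, such as the soluble and membrane forms of Flt1 or the length forms of Vegfa, are therefore not told apart.

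The 4 matrices held between 260346570 and 342107092 UMIs, and 63895 cells were kept after filtering, 14407 to 18860 per library, with median depths of 13913 to 15750 UMIs per cell. Any pair of libraries shared between 58 and 91 barcodes among kept cells. Cells were clustered without the 10 genes and without the pathway genes named below, and clusters were named by markers, so each class name stands for cells that are like that type by RNA. Of the 110 clusters, 23 (14.7% of cells) stayed unnamed. The classes that matter most here were general capillary (14287 cells), aerocyte (1511), arterial (665), venous (1523) and lymphatic (1406) endothelium, pericytes (719), alveolar type 1 (AT1) cells (195), alveolar fibroblasts (12000) and smooth muscle cells (183). AT1 cells were few, 24 to 76 per library, and shallow, with a median of 2930 UMIs. Levels below are depth-normalised counts (CPM), the UMIs of a gene relative to all UMIs summed over a class in a library, scaled by the trimmed mean of M values (TMM). The scaling ran over 92 sums, from the 23 classes that had 20 or more cells in each library, and errors are SD over 4 libraries.

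Of the 10 genes, 8 had their highest mean level in an endothelial class, and the exceptions were Vegfa and Angpt1, both ligands. Within the endothelium the genes were divided, with Kdr and Apln highest in aerocytes, Tek and Aplnr highest in general capillary cells, Vegfc highest in venous cells and Flt4 and Angpt2 highest in lymphatic cells. Flt1 was highest in arterial cells, where its range over libraries overlapped that of venous cells. The count of 8 was the same in all 12 alternative forms of processing tried, which were a stricter mitochondrial limit, doublets kept, 2 other clustering resolutions, another seed, the genes kept in clustering, removal of each library, unscaled CPM and a mean over cells.

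**Figure D1:**
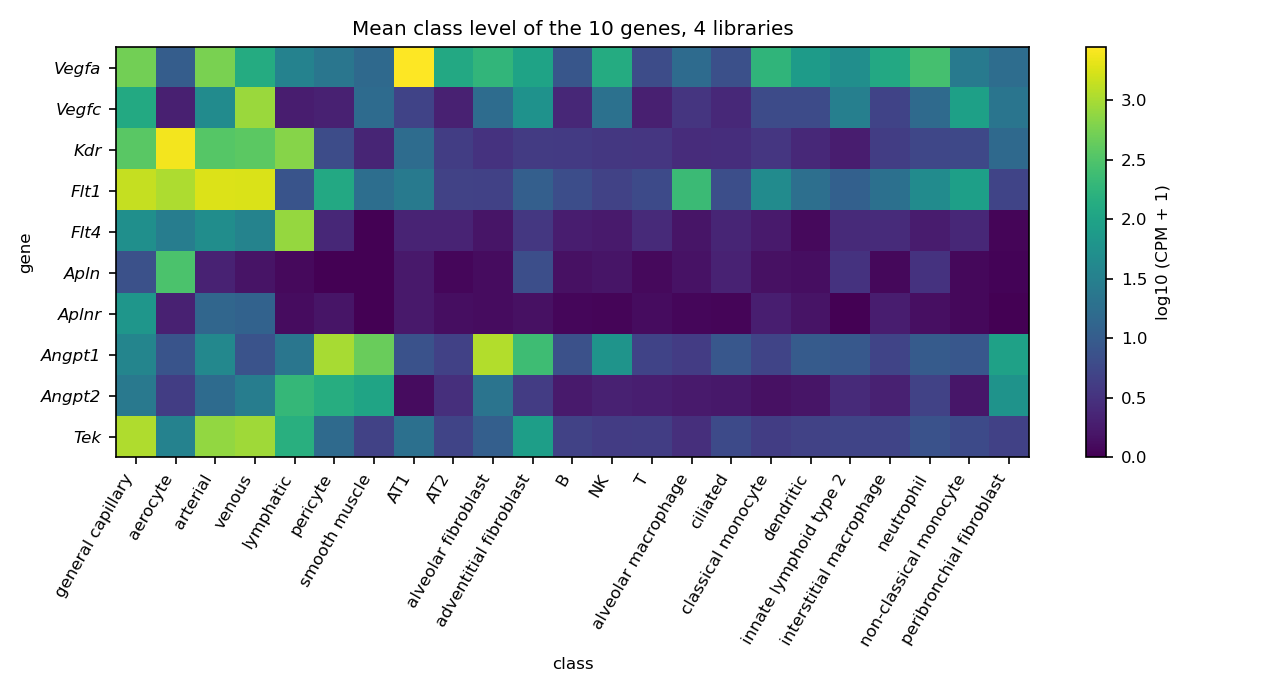
Mean level of each of the 10 genes (rows) in 23 cell classes (columns), as log10 of CPM plus 1, averaged over 4 libraries. Vegfa is brightest in AT1 cells and Angpt1 in alveolar fibroblasts and pericytes, while the other 8 genes are brightest in an endothelial class.

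Vegfa stood at 2786 and 2407 CPM after BPTES and 3058 and 2988 CPM after DMSO in AT1 cells (2809.7 ± 292 CPM, n = 4). Arterial cells followed at 564 ± 31.5 CPM and general capillary cells at 521 ± 66.7 CPM, and the ranges of these 2 classes overlapped. All 4 AT1 libraries lay far above every library of every other class. Next came neutrophils at 272 ± 45.7 CPM, alveolar fibroblasts at 188 ± 34.8 CPM and classical monocytes at 180.4 ± 12.2 CPM, and the last 2 ranges overlapped. Venous cells had 133 ± 19.4 CPM and alveolar type 2 (AT2) cells 118 ± 6.64 CPM, and lymphatic cells, pericytes and aerocytes were lower still, at 32.4, 21.9 and 9.56 CPM. B cells, taken as a class that should lack these transcripts, had 5.77 to 8.53 CPM, so the aerocyte range of 8.44 to 11.2 CPM was close to background. AT1 cells were few, so they held 3.73% of the Vegfa UMIs of kept cells on average, against 47.0% in general capillary cells and 22.3% in alveolar fibroblasts. A Vegfa UMI was present in 81.6% to 95.8% of AT1 cells per library and in 6.26% to 8.49% of B cells, whose median depth was 11718 UMIs. With each cell thinned to 3000 UMIs, which left out 101 of 195 AT1 cells, the shares were 91.7% to 100% and 1.81% to 2.86%.

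Vegfc, the ligand of VEGFR3, was a venous transcript, at 863 and 771 CPM after BPTES and 835 and 949 CPM after DMSO (854 ± 73.7 CPM, n = 4). General capillary cells came next at 125 ± 32.6 CPM, with a range of 85.2 to 164 CPM, and non-classical monocytes followed at 89.1 ± 12.2 CPM with an overlapping range. The lowest venous library was above the highest library of every other class. Adventitial fibroblasts had 56.1 CPM and arterial cells 44.7 CPM, while lymphatic cells, aerocytes and pericytes had 0.912, 1.02 and 1.07 CPM, within or below the B cell range of 0.589 to 2.03 CPM. The class with the highest Flt4 had background levels of its ligand's transcript. Venous cells held 32.3% and general capillary cells 37.3% of Vegfc UMIs, and a UMI was seen in 91.5% to 94.8% of venous cells (72.9% to 80.6% when thinned) and 23.2% to 35.1% of general capillary cells (12.2% to 21.1% when thinned), against 0.578% to 2.36% of B cells (0.0836% to 0.602% when thinned). A general capillary cluster of 313 cells stood out among the 3 clusters of that class, with Vegfc at 329.8 to 638 CPM unscaled, against 103 to 199.9 in the largest cluster. That cluster scored 2.36 for general capillary and 1.05 for venous markers, and Amigo2 and Vwf, among its leading genes, were also among those of the largest venous cluster. Before clusters were split it belonged to a cluster of 2536 cells whose highest score was for venous markers (2.68). Another part of that cluster, of 700 cells with Vegfc among the leading genes, stayed unnamed. Unnamed clusters held 11.7% of Vegfc UMIs. The part of these splits in the venous and general capillary levels was not tested.

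Apln was nearly restricted to aerocytes, and its mean reached 10 CPM in 1 of 23 classes. Aerocytes had 302 and 328 CPM after BPTES and 235 and 321 CPM after DMSO (297 ± 42.4 CPM, n = 4). General capillary cells had 6.11 ± 2.87 CPM and adventitial fibroblasts 5.73 ± 5.60 CPM, with overlapping ranges, and the remaining 20 classes had means of at most 2.18 CPM. No Apln UMI was found in any of the 719 pericytes or the 183 smooth muscle cells. Aerocytes, 2.36% of kept cells, held 80.7% of all Apln UMIs (78.7% to 82.9% per library). A UMI was present in 73.8% to 86.4% of aerocytes and in 1.42% to 2.57% of general capillary cells, which were shallower (median depths of 17829 and 13086 UMIs), and after thinning in 43.5% to 57.5% and 0.547% to 1.00%. B cells were at 0.139% to 0.801% before thinning and 0% to 0.179% after it. In general capillary cells the RNA was concentrated: the 5 cells with the most Apln held 51.7% and 48.0% of that class's Apln UMIs after BPTES and 55.6% and 48.4% after DMSO, while in aerocytes the 5 richest cells held between 6.44% and 7.84%.

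Angpt1 was highest in mesenchymal cells. Alveolar fibroblasts had 1036 and 862 CPM after BPTES and 1351 and 1260.3 CPM after DMSO (1127 ± 221 CPM, n = 4), and pericytes had 1014 and 1062 CPM after BPTES and 948 and 968 CPM after DMSO (998 ± 51.0 CPM). The ranges of these 2 classes overlapped, and with unscaled CPM or a mean over cells the pericyte level was the higher of them. Smooth muscle cells had 457 ± 169 CPM, adventitial fibroblasts 240.3 ± 30.0 CPM and the peribronchial fibroblast or myofibroblast class 92.9 ± 16.4 CPM. Among endothelial classes the highest means were 39.6 CPM in arterial and 36.3 CPM in general capillary cells, and aerocytes and venous cells, at 6.82 and 6.67 CPM, were near the 6.07 CPM of B cells. Alveolar fibroblasts were so numerous that they held 86.0% of Angpt1 UMIs and pericytes 3.78%. An Angpt1 UMI was seen in 98.6% to 99.3% of alveolar fibroblasts (79.9% to 90.6% thinned) and 91.8% to 95.1% of pericytes (88.8% to 93.2% thinned), against 3.37% to 7.36% of B cells (1.25% to 2.42% thinned), and the median depths of the 3 classes were 21357.5, 14009 and 11718 UMIs.

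Angpt2, in contrast, was split between lymphatic endothelium and mural cells. Lymphatic cells had 170.1 and 193 CPM after BPTES and 199.8 and 227 CPM after DMSO (197 ± 23.5 CPM), pericytes 100.4 to 172 CPM and smooth muscle cells 103 ± 24.8 CPM, and each of these ranges overlapped the next. The peribronchial class had 57.4 ± 12.9 CPM, and venous and general capillary cells had 28.1 ± 2.51 CPM and 23.6 ± 1.44 CPM. Aerocytes were at 3.25 CPM and B cells at 0.757 CPM. Because the classes differ in size, the largest shares of Angpt2 UMIs lay in alveolar fibroblasts (27.7%), general capillary cells (24.5%) and lymphatic cells (20.7%). Per cell, 58.7% to 72.8% of pericytes and 46.3% to 54.6% of lymphatic cells had a UMI (30.1% to 39.8% and 25.7% to 30.3% thinned), against 16.1% to 20.3% of general capillary cells (5.08% to 6.46% thinned) and 0.481% to 1.39% of B cells (0.179% to 0.602% thinned).

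**Figure D2:**
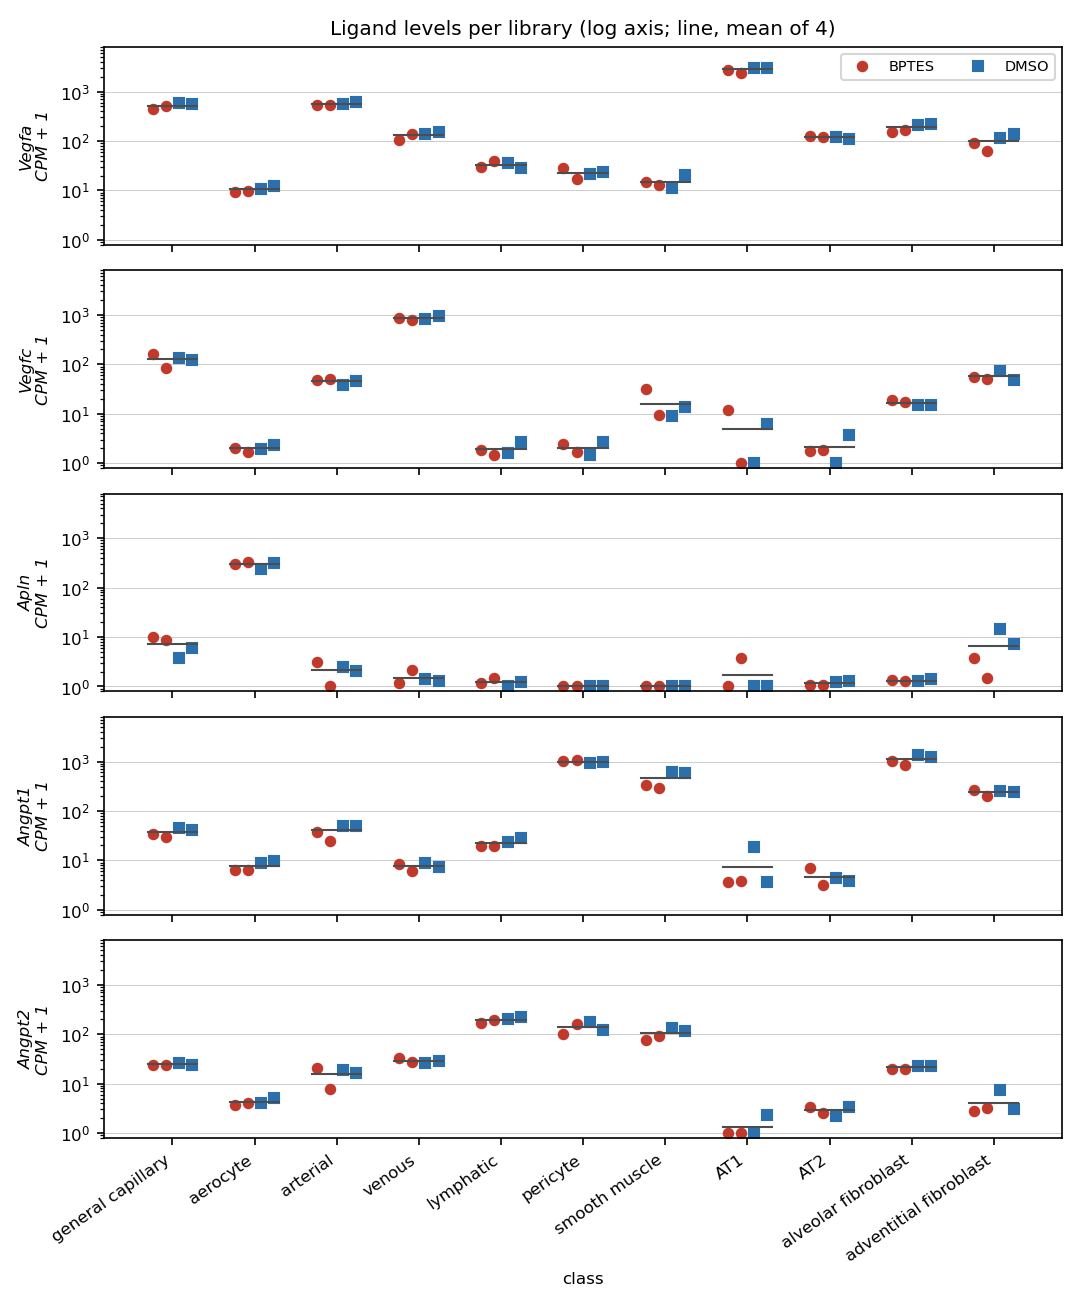
Level of the 5 ligands in 11 classes, as CPM plus 1 on a log axis, with 1 point per library (red circles, BPTES, blue squares, DMSO) and a line at the mean of 4 libraries. Vegfa peaks in AT1 cells, Vegfc in venous cells and Apln in aerocytes, Angpt1 peaks in alveolar fibroblasts and pericytes, and Angpt2 in lymphatic cells and pericytes.

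Kdr, the main receptor for VEGF-A, was highest in aerocytes, at 2571 and 2511 CPM after BPTES and 2329.8 and 2403 CPM after DMSO (2454 ± 108 CPM, n = 4). Lymphatic cells followed at 661 ± 30.5 CPM, and venous, general capillary and arterial cells had 382 ± 25.7 CPM, 362 ± 32.9 CPM and 344 ± 69.8 CPM. The last 3 ranges overlapped one another, while the aerocyte and lymphatic ranges overlapped no other. Outside the endothelium the highest mean was 15.6 CPM, in AT1 cells, and pericytes had 5.28 CPM against 2.86 CPM in B cells. Aerocytes and general capillary cells therefore held like shares of Kdr UMIs, 38.8% and 39.0%, from 1511 and 14287 cells. The class with the highest Kdr and the class with the highest Vegfa were different, and aerocytes had the lowest Vegfa of the 5 endothelial classes.

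Flt1 was shared by the blood endothelium. Arterial and venous cells had 1865 ± 137 CPM and 1779.7 ± 109.9 CPM, with overlapping ranges. General capillary cells had 1400.0 ± 49.6 CPM and aerocytes 1060.0 ± 41.5 CPM, and neither range overlapped another. Lymphatic cells had 6.88 ± 5.56 CPM, with a range of 3.32 to 15.2 CPM beside 4.89 to 6.54 CPM in B cells, so this receptor was near background in the class where Kdr was second highest. Outside the endothelium, Flt1 reached 224 ± 95.1 CPM in alveolar macrophages, 119 ± 48.4 CPM in pericytes and 86.3 ± 9.47 CPM in non-classical monocytes. The alveolar macrophage values varied from 86.9 to 302 CPM, over 36 to 115 cells per library. A Flt1 UMI was present in 26.7% to 50.6% of pericytes (15.4% to 27.9% thinned) and in 4.65% to 6.60% of B cells (1.79% to 1.96% thinned).

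Flt4, the receptor of VEGF-C, was a lymphatic transcript, at 809 and 854 CPM after BPTES and 754 and 776 CPM after DMSO (798 ± 43.9 CPM, n = 4). The blood endothelial classes had 51.6 ± 2.46 CPM in general capillary, 48.3 ± 3.42 CPM in arterial, 34.2 ± 2.19 CPM in venous and 28.4 ± 2.90 CPM in aerocyte cells. General capillary and arterial ranges overlapped, as did venous and aerocyte ranges, and all 4 classes lay above the 0.886 CPM of B cells. No other class had a mean above 2.64 CPM. Lymphatic cells held 52.0% of Flt4 UMIs and general capillary cells 33.0%, and a UMI was found in 96.5% to 97.6% of the former and 41.7% to 43.7% of the latter (88.4% to 91.7% and 12.6% to 15.2% thinned), against 0.481% to 0.695% of B cells (0% to 0.301% thinned).

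Tek, the receptor of both angiopoietins, was highest in general capillary cells, at 1021 and 939 CPM after BPTES and 1238 and 1172 CPM after DMSO (1093 ± 137 CPM, n = 4). Venous, arterial and lymphatic cells had 891 ± 34.5 CPM, 769 ± 56.7 CPM and 147 ± 16.7 CPM, and none of these ranges overlapped the next. Aerocytes had 32.5 ± 11.0 CPM, below the 69.0 to 98.2 CPM of adventitial fibroblasts. The capillary endothelium was divided by its receptors, with Kdr higher in aerocytes and Tek and Aplnr higher in general capillary cells in all 4 libraries. Pericytes, which had among the highest Angpt1 levels, had 14.5 CPM of Tek. General capillary cells held 74.2% of Tek UMIs, and a UMI was seen in 99.1% to 99.7% of them and 23.7% to 35.7% of aerocytes (88.3% to 95.3% and 3.81% to 11.8% thinned), against 3.37% to 5.09% of B cells (1.07% to 1.67% thinned).

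Aplnr, the apelin receptor, was found at low level and mostly in general capillary cells, at 81.1 and 62.9 CPM after BPTES and 57.1 and 56.8 CPM after DMSO (64.5 ± 11.4 CPM, n = 4). Arterial cells had 12.7 ± 12.8 CPM and venous cells 11.3 ± 2.62 CPM, with overlapping ranges, and the arterial mean rested on DMSO library 1, at 31.9 CPM against at most 7.51 CPM in the other 3. Aerocytes had 1.06 ± 1.12 CPM, so that receptor and peptide were highest in different capillary classes in every library. General capillary cells held 86.1% of Aplnr UMIs, and 32.2% to 46.6% of them had a UMI, against 0.288% to 3.77% of aerocytes (13.1% to 19.0% and 0% to 0.514% thinned) and 0% to 0.440% of B cells (0% to 0.0722% thinned). Within the class, a cluster of 4497 cells had Apln at 9.68 to 21.8 CPM unscaled and Aplnr at 70.0 to 96.4 CPM, and the largest cluster, of 9477 cells, had Apln at 0.957 to 1.55 and Aplnr at 45.6 to 72.5 CPM. The smaller of these clusters made up 36.4% and 43.7% of general capillary cells after BPTES and 17.6% and 28.3% after DMSO.

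**Figure D3:**
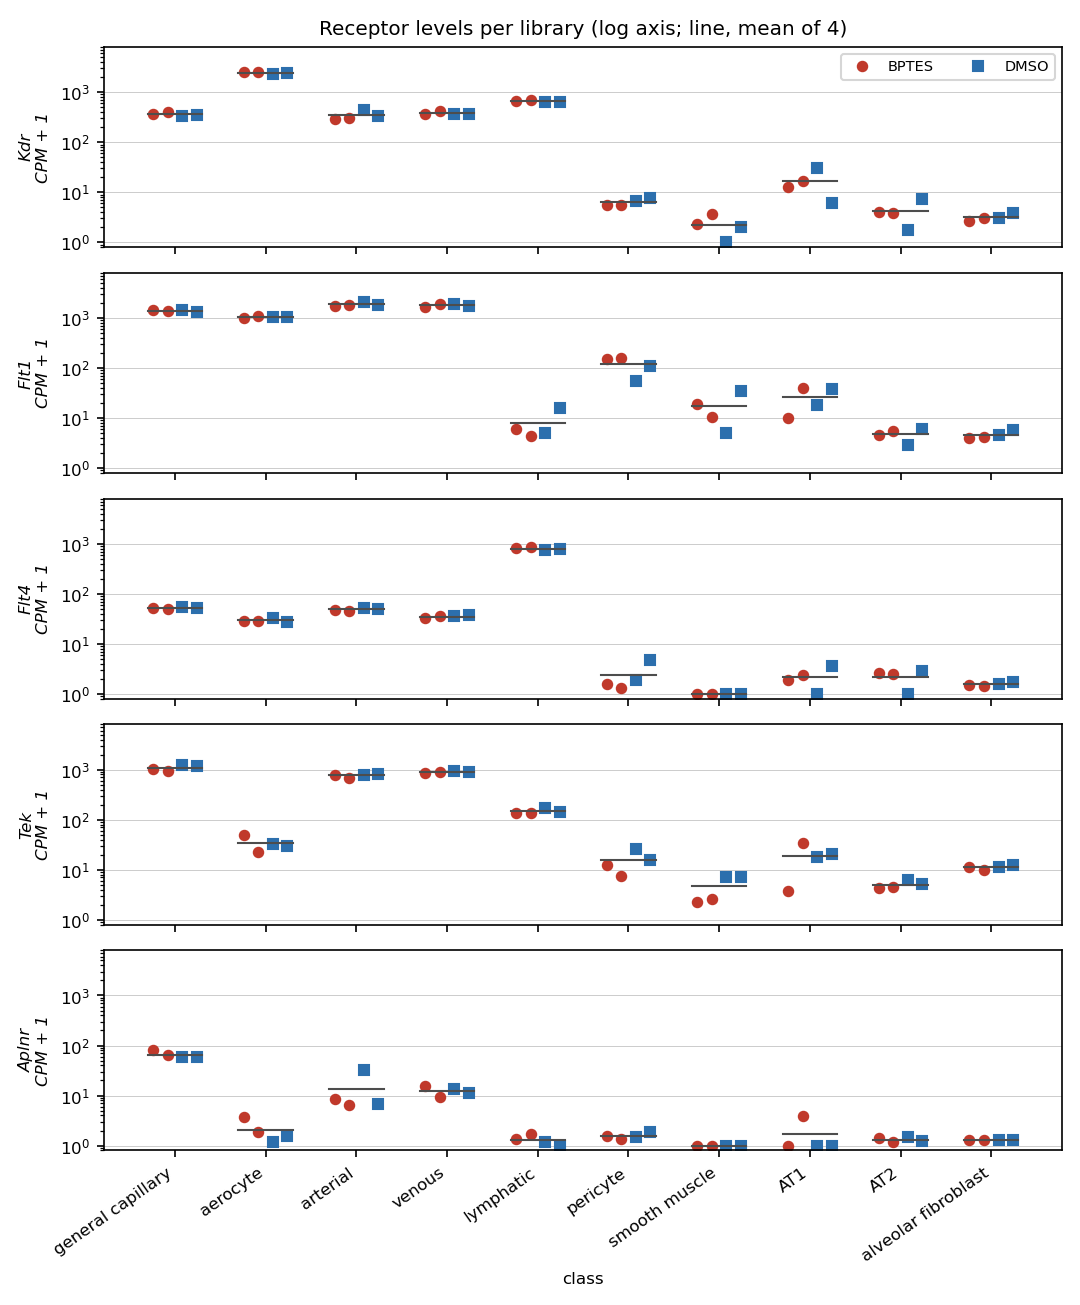
Level of the 5 receptors in 10 classes, as CPM plus 1 on a log axis, with 1 point per library (red circles, BPTES, blue squares, DMSO) and a line at the mean of 4 libraries. Kdr is highest in aerocytes, Flt4 in lymphatic cells and Tek and Aplnr in general capillary cells, and Flt1 is high in the 4 blood endothelial classes and near the floor in lymphatic cells.

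**Figure D4:**
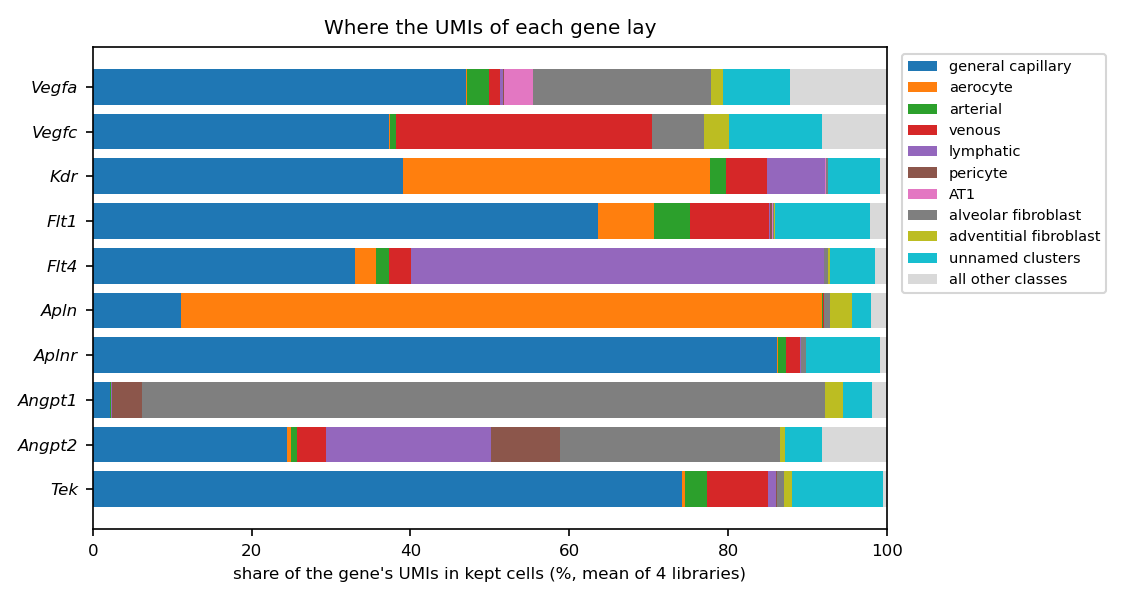
Share of each gene's UMIs in kept cells by class (horizontal stacked bars, percent, mean of 4 libraries). Aerocytes hold most of Apln, alveolar fibroblasts most of Angpt1 and general capillary cells most of Aplnr, Tek and Flt1, while Kdr is divided between general capillary cells and aerocytes.

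Likeness of pattern was measured as Pearson's r of log2(CPM + 1) over the 92 class and library sums, among 14101 genes with a mean of at least 10 CPM in a class. These values are descriptions, since the 4 sums of a class share its cells' identity and the sums of a library share its preparation. Kdr was most like Cldn5 (r = 0.96), Ushbp1 (r = 0.95) and Cdh5 (r = 0.95), of which Cldn5 encodes an endothelial tight junction protein and Cdh5 encodes VE-cadherin. Tek was most like Ptprb (r = 0.93), Gpr182 (r = 0.91) and Plvap (r = 0.91), and Ptprb encodes the phosphatase VE-PTP, which acts on TIE2. Flt1 was most like Klhl5 (r = 0.88), Hpgd (r = 0.83) and Notch4 (r = 0.83), and Flt4 most like 4930578C19Rik (r = 0.94), Nova2 (r = 0.92) and Bean1 (r = 0.92). For apelin signalling, the closest to Aplnr were Glp1r (r = 0.94), Dnah2os (r = 0.90) and Disp2 (r = 0.89), and the closest to Apln were Gm40639 (r = 0.91), Rprml (r = 0.90) and Slc5a12 (r = 0.88). Glp1r and Plvap are on the list of general capillary markers used to name clusters and Rprml on the aerocyte list. Angpt1 was closest to Sdk2 (r = 0.89), Ppp1r14a (r = 0.89) and Sparcl1 (r = 0.88), and Angpt2 to Smtn (r = 0.89), Rnf152 (r = 0.87) and Lmcd1 (r = 0.86). The lowest likeness was found for Vegfa, closest to Ndst1 (r = 0.69), Pgap2 (r = 0.64) and Gm36569 (r = 0.64), and Vegfc, closest to Lama1 (r = 0.70), Myrip (r = 0.70) and Tcf23 (r = 0.70).

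The treatment comparison asked whether BPTES changed the RNA of these ligands and receptors within a cell class. Counts were summed per library and class and tested by edgeR's quasi-likelihood test in 11 classes, with Benjamini-Hochberg adjustment over all genes of the class and calls at an adjusted p under 0.05. Levels in these sentences are TMM-scaled CPM within the class, and fold changes are of BPTES over DMSO. The removal of a library leaves 1 in its group, whose spread is then assumed to equal that of the other libraries. Of 84 gene and class pairs that passed the filter on low counts, edgeR called 0. At an unadjusted p under 0.05 there were 26 pairs, 6 higher and 20 lower with BPTES, and DESeq2 called 6 pairs on the same sums. The pairs are not independent, since the same genes and libraries recur over the classes. The direction over all genes at that p was not counted, so the split of these pairs has no background beside it. The share of all genes whose groups did not overlap within a class is not given either. Genes said below to lie higher or lower in both BPTES libraries therefore have no such share beside them. Over all genes of the 11 classes together the share with an unadjusted p under 0.05 was 12.6%, from 3.79% in AT1 cells to 22% in alveolar fibroblasts, and the share called by DESeq2 was 1.54%, from 0% to 5.21% in the same classes. Of the 26 pairs, 11 lay in general capillary cells and alveolar fibroblasts, the classes with the highest such shares. The count of edgeR calls rose to 8 without BPTES library 1 (Angpt1 in general capillary, arterial, smooth muscle and alveolar fibroblast cells, and Apln, Kdr, Tek and Vegfc in general capillary cells), to 2 without BPTES library 2 (Aplnr in general capillary cells, Tek in aerocytes), and to 1 without DMSO library 1 (Flt1 in lymphatic cells) or DMSO library 2 (Aplnr in arterial cells). Calls over all genes rose as well without BPTES library 1, in general capillary, arterial, smooth muscle and alveolar fibroblast cells. They also rose in general capillary cells and aerocytes without BPTES library 2. The rise was small in lymphatic cells without DMSO library 1 and larger in arterial cells without DMSO library 2. Whether the calls among the 10 genes exceed this general rise was not tested. With no filter on low counts the count of pairs was 16, and calls over all genes were then 2105 of 23524 in general capillary cells, 933 of 24509 in alveolar fibroblasts and 750 of 21370 in adventitial fibroblasts. Pairs with too few counts were not tested, among them Apln in arterial, venous and lymphatic cells and in pericytes and Vegfc in aerocytes and lymphatic cells. Angpt1 was the gene with the most classes at an unadjusted p under 0.05, all with lower values after BPTES: general capillary, aerocyte, arterial and lymphatic endothelium, smooth muscle and alveolar fibroblasts, with log2 fold changes from -0.43 to -1.02. The aerocyte level was near that of B cells, where Angpt1 stood at 5.77 and 3.92 CPM after BPTES and 8.43 and 6.14 CPM after DMSO, and the part of such background RNA in these values was not tested. Vegfa had an unadjusted p under 0.05 in general capillary cells and both fibroblast classes, again lower, and no gene had an unadjusted p under 0.05 in venous, AT1 or AT2 cells. Of the 10 genes, each tested in 4 to 11 classes, 6 were higher in both BPTES libraries in a class and lower in both in another, near the 52.7% of all genes tested in at least 4 classes. Summed RNA per class does not tell less RNA per cell from fewer cells of a subtype within it.

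In general capillary cells Apln, its receptor gene Aplnr and Kdr lay higher in both BPTES libraries, and Angpt1, Tek and Vegfa lay lower in both. There edgeR called 0 of the 10 genes beside 0% of all genes tested (0 of 15799), and 6 of the 10 had an unadjusted p under 0.05 beside 21.5% of all genes. DESeq2 called 3 of the 10 (Apln, Tek and Angpt1) beside 4.44% of all genes. Apln stood at 9.44 and 7.77 CPM after BPTES and 2.75 and 4.98 CPM after DMSO (log2 fold change 1.13, SE 0.266, edgeR adjusted p = 0.126). Both BPTES libraries lay above both DMSO libraries, and the DESeq2 adjusted p was 0.00225. The share of cells with an Apln UMI was 2.45% and 2.57% after BPTES and 1.42% and 1.88% with DMSO. Less the Apln UMIs of the 5 richest cells of each library, with class totals unchanged, the unscaled levels were 4.55 and 3.84 against 1.26 and 2.63 CPM. Within the cluster of 4497 cells that carried most of the RNA the log2 fold change was 0.52 (SE 0.232, adjusted p = 0.306) and within the largest cluster 0.44 (SE 0.283, adjusted p = 0.449), and at clustering resolution 2 the class value was -0.10. The part that the differing share of these clusters plays in the class value was not tested.

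Angpt1 in the same class was at 33.5 and 29.3 CPM after BPTES and 44.1 and 40.6 CPM after DMSO (log2 fold change -0.43, SE 0.0892, edgeR adjusted p = 0.122, DESeq2 adjusted p = 0.0151). Tek, the receptor, was at 1048 and 959 CPM after BPTES and 1256 and 1183 CPM after DMSO (log2 fold change -0.28, SE 0.0857, edgeR adjusted p = 0.16, DESeq2 adjusted p = 0.0498), again with both BPTES libraries below both DMSO libraries. Vegfa lay lower in both BPTES libraries (log2 fold change -0.28, adjusted p = 0.165), and Aplnr and Kdr lay higher in both (log2 fold changes 0.36 and 0.20, adjusted p = 0.177 and 0.224). The Aplnr difference was -0.06 within the cluster of 4497 cells and 0.41 within the largest cluster. Flt1, Flt4 and Vegfc overlapped between groups, and Angpt2 was lower in both BPTES libraries, with a class value of -0.09. Within the clusters of 9477, 4497 and 313 cells Angpt1 was at -0.27, -0.23 and 0.13, Tek at -0.22, -0.16 and -0.25, Vegfa at -0.22, -0.20 and -0.28, and Kdr at 0.12, 0.14 and 0.09 (log2 fold change, adjusted p from 0.191 to 0.982). In the same clusters the Angpt2 values were -0.30 (adjusted p = 0.314), -0.34 (adjusted p = 0.21) and -0.51 (adjusted p = 0.831), and the part of the cluster shares in the class value was not tested. RNA of AT2 cells in general capillary cells, summed over Sftpc, Sftpa1, Sftpb, Slc34a2 and Lamp3, moved with the groups too. It was at 347 and 249.8 CPM after BPTES and 85.1 and 189.8 CPM after DMSO. All 5 genes were higher in both BPTES libraries, a count with no share of all genes beside it. The part of this RNA in these differences was not tested.

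In aerocytes their leading transcripts, Apln and Kdr, had small log2 fold changes of 0.16 and 0.08. This class had 0 of 8 tested genes called beside 0.112% of all genes, 1 of 8 with an unadjusted p under 0.05 beside 10.3%, and 0 called by DESeq2 beside 0.389%. Apln in this class was at 316 and 356 CPM after BPTES and 259 and 341 CPM after DMSO (log2 fold change 0.16, SE 0.111, edgeR adjusted p = 0.673), and the groups overlapped. Kdr was at 2691 and 2725 CPM after BPTES and 2568 and 2550.5 CPM after DMSO (log2 fold change 0.08, SE 0.0642, edgeR adjusted p = 0.727), with both BPTES libraries above both DMSO libraries. Angpt1, a low transcript here, was the gene with an unadjusted p under 0.05 (log2 fold change -0.63, adjusted p = 0.404). The other 5 tested genes had log2 fold changes between -0.35 (Angpt2) and 0.20 (Tek).

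Whether the treatment difference itself differed between the capillary classes was tested as an interaction, with library as a term. Of the 10 genes 1 was called, Apln, beside 0.55% of all genes, and 3 had an unadjusted p under 0.05 beside 9.7%. The Apln difference in aerocytes minus that in general capillary cells was -0.96 on the log2 scale (SE 0.154, edgeR adjusted p = 0.00936): the gene was 1.13 higher in general capillary cells and 0.16 higher in aerocytes. The call was lost when the 10 genes and the pathway list were kept among the clustering genes (-0.50, edgeR adjusted p = 0.505), and it held with size factors of the RLE kind, no low-count filter, another seed and the removal of each library. As above, general capillary Apln rested on few cells and its level differed between the clusters of that class. Aplnr and Tek had interaction values of 1.90 (adjusted p = 0.262) and 0.48 (adjusted p = 0.4). These ran from 1.05 to 3.07 and from -0.10 to 0.89 over the alternative settings.

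Arterial cells had lower Angpt1 and Kdr in both BPTES libraries. In this class 0 of 9 tested genes were called beside 0.438%, 3 of 9 had an unadjusted p under 0.05 beside 9.78%, and DESeq2 called 0 beside 0.457%. Angpt1 was at 43.1 and 27.6 CPM after BPTES and 58.6 and 57.2 CPM after DMSO (log2 fold change -0.70, SE 0.209, edgeR adjusted p = 0.257). The value was -1.06 without BPTES library 1 (edgeR adjusted p = 0.0204), -0.42 without BPTES library 2 (edgeR adjusted p = 0.64) and -1.33 at clustering resolution 2 (edgeR adjusted p = 0.0641). Kdr was at 340.0 and 359.8 CPM after BPTES and 533 and 389 CPM after DMSO (log2 fold change -0.39, SE 0.153, edgeR adjusted p = 0.412), again lower in both BPTES libraries, with DMSO library 1 standing above the rest. The Kdr value ran from -0.61 to 0.048 over the alternative settings. Aplnr had a log2 fold change of -1.47 that came from DMSO library 1 and turned to 0.19 without it. A cluster of 83 cells led by Fabp4, with 8 and 16 cells after BPTES and 32 and 27 after DMSO, sat within the arterial class. It scored 1.51 for arterial and 1.03 for general capillary markers, where a name needed 1.5, so its identity is unsure. The other 3 arterial clusters scored 2.08 to 2.57 for arterial markers. Among them a cluster of 169 cells scored 2.17 for arterial and 2.03 for general capillary markers. It had 53 and 62 cells after BPTES and 19 and 35 after DMSO, and its part in these differences was not tested. Before clusters were split, the arterial cluster had 1118 cells, of which parts of 332, 167 and 37 cells stayed unnamed. Without the Fabp4-led cluster, an alternative chosen after seeing the data, the Kdr value was -0.06 and the Angpt1 value -0.82. The other 6 tested genes had log2 fold changes between -0.33 (Angpt2) and 0.18 (Vegfc).

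The leading transcripts of venous and lymphatic cells, Vegfc and Flt4, had log2 fold changes of -0.15 and 0.10. Venous cells had 0 of 9 genes called beside 0%, 0 of 9 with an unadjusted p under 0.05 beside 10.4%, and 0 called by DESeq2 beside 0.342%. Vegfc, their leading ligand, was at 950.2 and 830.0 CPM after BPTES and 941 and 1029.6 CPM after DMSO (log2 fold change -0.15, SE 0.115, edgeR adjusted p = 0.689), and the groups overlapped. The other 8 tested genes had log2 fold changes between -0.26 (Vegfa) and 0.08 (Angpt2). Lymphatic cells had 0 of 7 called beside 0.537%, 4 of 7 with an unadjusted p under 0.05 beside 12.1%, and 0 by DESeq2 beside 0.384%. Flt4 was at 947 and 1021 CPM after BPTES and 903 and 937 CPM after DMSO (log2 fold change 0.10, SE 0.0967, edgeR adjusted p = 0.753), a small difference without overlap. Angpt2 was at 199 and 230.1 CPM after BPTES and 239.6 and 274 CPM after DMSO (log2 fold change -0.26, SE 0.110, edgeR adjusted p = 0.359) and lay lower in both BPTES libraries. Tek and Angpt1 had log2 fold changes of -0.24 and -0.44 (adjusted p = 0.395 and 0.332), and the Flt1 value of -1.18 came from DMSO library 2, at 18.3 CPM against at most 5.87 CPM in the other libraries, and was 0.05 without it. Over the alternative settings Angpt2 ran from -0.37 to -0.16, Tek from -0.35 to -0.11 and Angpt1 from -0.57 to -0.31.

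Pericytes had higher Flt1 in both BPTES libraries, while their angiopoietin transcripts, Angpt1 and Angpt2, had log2 fold changes of 0.07 and -0.21. In pericytes 0 of 6 tested genes were called beside 0% of all genes, 2 of 6 had an unadjusted p under 0.05 beside 4%, and DESeq2 called 0 beside 0.0802%. Angpt1, their main ligand, was at 1229 and 1279.7 CPM after BPTES and 1227 and 1165 CPM after DMSO (log2 fold change 0.07, SE 0.136, edgeR adjusted p = 0.996), and Angpt2 was at 122 and 193 CPM after BPTES and 223 and 143 CPM after DMSO (log2 fold change -0.21, SE 0.285, edgeR adjusted p = 0.987) with overlapping groups. Flt1 was higher in both BPTES libraries, at 184 and 193 CPM after BPTES and 70.4 and 132 CPM after DMSO (log2 fold change 0.88, SE 0.272, edgeR adjusted p = 0.984). A pericyte cluster of 79 cells, 57 of them in BPTES library 1, had Flt1 at 313 CPM there, and in the largest pericyte cluster the values were 98.4 and 163 CPM after BPTES and 70.3 and 132 CPM after DMSO, where the groups overlapped. Endothelial RNA in pericytes, summed over Pecam1, Cldn5, Egfl7, Ramp2 and Tmem100, was 322 and 245 CPM after BPTES and 169.6 and 285 CPM after DMSO. It was lowest in the library with the lowest Flt1, but BPTES library 2, with the highest Flt1, had less of it than DMSO library 2. Its part was not tested. Tek, a low transcript in pericytes at 6.50 to 25.6 CPM against 2.88 to 4.39 CPM in B cells on the scale across classes, had a log2 fold change of -1.16 (adjusted p = 0.984). Kdr and Vegfa had log2 fold changes of -0.51 and -0.06.

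In smooth muscle cells Angpt1 and Angpt2 both lay lower in both BPTES libraries. Smooth muscle cells had 0 of 5 tested genes called by edgeR beside 0%, 2 of 5 with an unadjusted p under 0.05 beside 8.22%, and 1 of 5 called by DESeq2, Angpt1, beside 0.169%. Angpt1 was at 415 and 349.7 CPM after BPTES and 794 and 758 CPM after DMSO (log2 fold change -1.02, SE 0.187, edgeR adjusted p = 0.238, DESeq2 adjusted p = 0.03), so both BPTES libraries lay below both DMSO libraries. Of the 569 Angpt1 UMIs of DMSO library 2, 245 came from a single cell, and each library held only 30 to 78 smooth muscle cells. Less the Angpt1 UMIs of the 5 richest cells of each library, the unscaled levels were 227 and 238 CPM after BPTES and 456 and 281 CPM after DMSO. The class totals used as divisor still held those 5 cells, which are a larger part of 30 cells than of 78. The 8 smooth muscle markers used for naming had a summed level of 22937 and 24244 CPM after BPTES and 14616 and 18202 CPM after DMSO. All 8 were higher in both BPTES libraries, a count with no share of all genes beside it. Their part in the Angpt1 difference was not tested. Angpt2 also lay lower in both BPTES libraries (log2 fold change -0.63, adjusted p = 0.571). The other 3 tested genes had log2 fold changes between -0.85 (Flt1) and 0.62 (Vegfc).

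Vegfa, the ligand for which AT1 cells stood out, had log2 fold changes of -0.28 in AT1 and 0.01 in AT2 cells. AT1 cells, the class with the highest Vegfa, had 0 of 4 tested genes called by edgeR beside 0%, 0 of 4 with an unadjusted p under 0.05 beside 3.79%, and 0 by DESeq2 beside 0%. Vegfa there was at 3459 and 3213 CPM after BPTES and 4259 and 3830.1 CPM after DMSO (log2 fold change -0.28, SE 0.194, edgeR adjusted p = 0.999), lower in both BPTES libraries, from 24 to 76 cells per library. The 5 richest cells held 82.6% of the Vegfa UMIs of DMSO library 1. In AT2 cells 0 of 7 genes were called beside 0.4%, 0 of 7 had an unadjusted p under 0.05 beside 14.3%, and DESeq2 called 0 beside 1.08%. In that class Vegfa was at 90.2 and 87.3 CPM after BPTES and 95.8 and 82.2 CPM after DMSO (log2 fold change 0.01, SE 0.0893).

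In alveolar fibroblasts, which held most Angpt1 RNA, Angpt1 and Vegfa lay lower in both BPTES libraries. Alveolar fibroblasts had 0 of 10 genes called by edgeR beside 0.203% of all genes, 5 of 10 with an unadjusted p under 0.05 beside 22%, and 2 of 10 called by DESeq2, Vegfa and Angpt1, beside 5.21%. Vegfa was at 148 and 157 CPM after BPTES and 207 and 212 CPM after DMSO (log2 fold change -0.46, SE 0.0709, edgeR adjusted p = 0.0759, DESeq2 adjusted p = 6.78e-05). Angpt1 was at 1007 and 833 CPM after BPTES and 1305 and 1216 CPM after DMSO (log2 fold change -0.45, SE 0.108, edgeR adjusted p = 0.118, DESeq2 adjusted p = 0.00317). Angpt2 and Flt1 also lay lower in both BPTES libraries, by log2 fold changes of -0.23 and -0.46 (adjusted p = 0.156 and 0.215). Over the alternative settings the Flt1 value ran from -0.65 to -0.032. Vegfc was higher in both BPTES libraries, at 17.7 and 16.1 CPM after BPTES and 13.8 and 13.6 CPM after DMSO (log2 fold change 0.30, SE 0.0879, edgeR adjusted p = 0.141). Its value ran from 0.018 to 0.37 over the alternative settings. The class was made of 3 clusters, of which the one led by Tnc had overlapping shares between groups, and the cluster with the highest Vegfa and Angpt1, led by Fat3, made up 29.2% and 30.6% of the class after BPTES and 45.2% and 37.7% after DMSO. Within that cluster Angpt1 was at 1452 and 1293 CPM after BPTES and 1729 and 1645 CPM after DMSO (unscaled) and Vegfa at 267 and 285 CPM after BPTES and 322 and 333 CPM after DMSO. The cluster led by Tnc had Angpt1 at 1059.5 and 902 CPM after BPTES and 1378 and 1235 CPM after DMSO and Vegfa at 137 and 163 CPM after BPTES and 187 and 199 CPM after DMSO, and the cluster led by Adh7 had Angpt1 at 466 and 361 CPM after BPTES and 584 and 535 CPM after DMSO and Vegfa at 50.1 and 46.4 CPM after BPTES and 56.6 and 55.7 CPM after DMSO. Both ligands were thus lower in both BPTES libraries within each of the 3 clusters, while Vegfc overlapped between groups in each of them. The cluster led by Adh7, with the lowest levels of both ligands, made up 22.7% and 29.8% of the class after BPTES and 19.1% and 20.8% after DMSO. It scored 1.88 for alveolar and 1.45 for adventitial fibroblast markers, the closest scores of the 3 clusters. Scored before other clusters were split, this cluster of 2770 cells was highest for adventitial markers (1.61) and second for alveolar markers (1.24). The part of the cluster shares in the class values was not tested. Of the 8 alveolar fibroblast markers 5 were lower in both BPTES libraries, with a summed level of 13616 and 12948 CPM after BPTES and 14112 and 14331 CPM after DMSO. Of 5 general fibroblast genes (Col1a1, Col1a2, Col3a1, Pdgfra and Dcn) 4 were higher in both, with a summed level of 4873 and 5191 CPM after BPTES and 3951 and 4184 CPM after DMSO. These counts have no share of all genes beside them, and the part of either list was not tested.

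In adventitial fibroblasts Vegfa and Apln lay lower in both BPTES libraries and Tek lay higher in both (log2 fold change 0.38, adjusted p = 0.464). Adventitial fibroblasts had 0 of 9 genes called beside 0.0148%, 3 of 9 with an unadjusted p under 0.05 beside 9.64%, and 0 by DESeq2 beside 0.682%. Vegfa was at 89.4 and 57.6 CPM after BPTES and 106 and 132 CPM after DMSO (log2 fold change -0.71, SE 0.225, edgeR adjusted p = 0.444), and Apln had a log2 fold change of -2.84 (adjusted p = 0.394) from 11 and 4 UMIs after BPTES against 162 and 47 after DMSO, and 10 of the 11 lay in a single cell. The class was made of 6 clusters, and the cluster led by Sult1e1, of 174 cells, had 3 and 11 cells after BPTES and 92 and 68 after DMSO. Mesothelial cells moved alike, at 6 and 15 after BPTES and 220 and 68 after DMSO, their marker score was the second of this cluster (0.658 against 2.72 for adventitial markers), and Wt1 and Col6a5 were among the leading genes of both. The part of mesothelial RNA in the values of this class was not tested. Of the class's Apln UMIs it held 136 and 38 after DMSO and 0 in each library after BPTES, and of the Vegfa UMIs 725 and 367 after DMSO against 25 and 18 after BPTES. Between 2.22% and 3.89% of the class after BPTES, and between 22.9% and 25.5% after DMSO, belonged to it. Without this cluster, an alternative chosen after seeing the data, the log2 fold changes were -0.35 for Vegfa, -0.64 for Apln and 0.11 for Tek (adjusted p = 0.811, 0.878 and 0.893). In the largest cluster, led by Ccl11 and of 402 cells, the groups overlapped for each of these genes, with unscaled Vegfa at 110.3 and 77.9 CPM after BPTES and 92.9 and 119 CPM after DMSO, Apln at 4.99 and 0.270 CPM after BPTES and 4.47 and 2.31 CPM after DMSO and Tek at 59.9 and 51.2 CPM after BPTES and 59.4 and 60.5 CPM after DMSO. The BPTES libraries differed in the cluster with the most Tek UMIs. In BPTES library 1 it was led by Scara5, with 194 UMIs. In BPTES library 2 it was led by Pi16, with 340 UMIs, and that cluster had 1 cell in BPTES library 1 and 45 in BPTES library 2. The part of these clusters in the Tek difference was not tested.

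**Figure D5:**
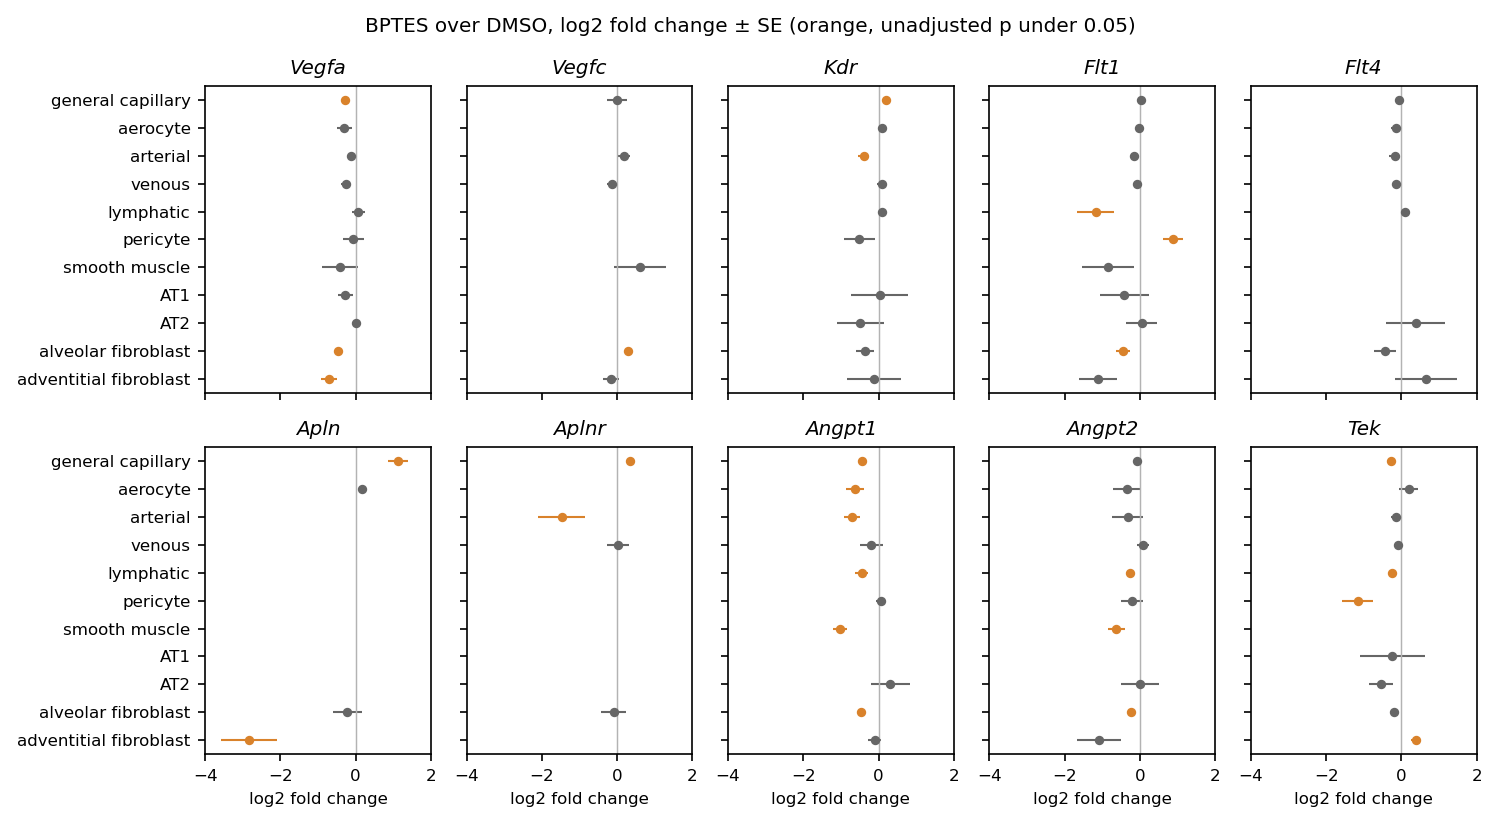
Log2 fold change of BPTES over DMSO with its standard error for each of the 10 genes (panels) in 11 classes (rows), from edgeR's quasi-likelihood fit with 2 libraries per group, with orange for an unadjusted p under 0.05 and no point where a gene did not pass the filter on low counts. Most points lie within 1 of 0, Angpt1 lies below 0 in smooth muscle at -1.02, and Apln lies above 0 in general capillary cells at 1.13 and below 0 in adventitial fibroblasts at -2.84.

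Other genes of these pathways were read from a list of 20: the ligands Vegfb, Vegfd and Pgf, the co-receptors Nrp1 and Nrp2, Tie1, Angpt4, the phosphatase gene Ptprb, Svep1, Apela, the VEGF-C processing genes Ccbe1 and Adamts3, and Esm1, Dll4, Hif1a, Epas1, Foxo1, Plcg1, Nos3 and Cdh5. Over the 11 classes 161 gene and class pairs were tested and edgeR called 0 of them, 32 had an unadjusted p under 0.05 (9 higher, 23 lower) beside 12.6% of all genes, and DESeq2 called 5 beside 1.54%. These pairs too are not independent, and the direction over all genes was not counted. In general capillary cells 7 of 19 had an unadjusted p under 0.05 beside 21.5% of all genes, 4 higher and 3 lower, and the median log2 fold change was -0.03 against -0.01 over all genes. Nos3, the endothelial nitric oxide synthase, was at 59.4 and 56.0 CPM after BPTES and 44.4 and 48.0 CPM after DMSO (log2 fold change 0.32, SE 0.0717, edgeR adjusted p = 0.124), and both BPTES libraries were the higher ones. Nrp2, a co-receptor of VEGFR3, was at 42.5 and 57.4 CPM after BPTES and 29.1 and 35.4 CPM after DMSO (log2 fold change 0.63, SE 0.157, edgeR adjusted p = 0.132, DESeq2 adjusted p = 0.00634) and was likewise higher in both. Vegfd, a ligand of VEGFR3, was lower in both (log2 fold change -0.40, adjusted p = 0.14).

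In aerocytes 3 of 13 listed genes had an unadjusted p under 0.05 beside 10.3% of all genes, 2 higher and 1 lower. The lower gene was Nrp2, at 1.12 and 1.07 CPM after BPTES and 19.5 and 4.76 CPM after DMSO (log2 fold change -3.42, SE 0.648, edgeR adjusted p = 0.0735). Its interaction value, -3.98 (SE 0.658, edgeR adjusted p = 0.0104), was the call among the 18 listed genes tested for a difference between aerocytes and general capillary cells, beside 0.55% of all genes, and it too was lost when the genes were kept in the clustering (-3.78, edgeR adjusted p = 0.0979). In DMSO library 1, the 5 richest of 347 aerocytes held 83.9% of the 112 Nrp2 UMIs. The 2 higher genes were Plcg1, whose product signals below VEGFR2 (log2 fold change 0.25, adjusted p = 0.294), and Ccbe1, at 0.866 to 3.66 CPM (1.28, adjusted p = 0.452).

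In arterial cells 0 of 14 listed genes had an unadjusted p under 0.05 beside 9.78% of all genes, and in venous cells 2 of 16, both lower, beside 10.4%. In lymphatic cells it was 3 of 14 beside 12.1%, all lower, among them Nos3 (log2 fold change -0.79, adjusted p = 0.195) and Epas1, which encodes HIF-2α (-0.33, adjusted p = 0.291). Pericytes had 3 of 15 beside 4%, with Foxo1, a transcription factor inhibited by TIE2 signalling in endothelium, at -0.46 (adjusted p = 0.984). Smooth muscle cells had 3 of 13 beside 8.22%, all lower, among them the co-receptor gene Nrp1 at -0.78 (adjusted p = 0.423) and Angpt4, a further TIE2 ligand, at -1.01 (adjusted p = 0.585). AT1 cells had 0 of 9 beside 3.79%, AT2 cells 1 of 14 beside 14.3% and adventitial fibroblasts 1 of 16 beside 9.64%. Alveolar fibroblasts had 9 of 18 beside 22%, 2 higher and 7 lower, with a median log2 fold change of -0.15 against -0.01 over all genes. DESeq2 called 4 of them there beside 5.21% of all genes, all lower: Svep1 (log2 fold change -0.31, DESeq2 adjusted p = 0.0133), whose product binds TIE1, Nrp2 (-0.36, 0.0277), Ccbe1 (-0.37, 0.0483) and Ptprb (-0.54, 0.0489). The fold changes in this list are those of edgeR.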

How the data were processed

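Lung cells of 4 libraries (2 BPTES, 2 DMSO) were measured by 10x 3′ single-cell RNA sequencing. The deposited matrices hold raw UMI counts per gene and barcode, made with Cell Ranger 8.0.1 per the file headers, on mm10 per the submitters' processing notes; each total was 260346570 to 342107092 counts. Barcodes with at least 500 genes, 1000 UMIs and at most 10% mitochondrial UMIs were kept and doublets removed by simulated doublet scores at 0.4% per 1000 cells, which left 63895 of 74057. Cells were clustered (2000 variable genes, 40 components, 15 neighbours, Leiden resolution 1, igraph 0.11.9) without the members and the pathway list. Clusters that held markers of several types were split at resolution 0.5, by a threshold set after the clusters were seen, and named by fixed marker lists. Counts were summed per library and class and tested with edgeR 4.0.16 (filterByExpr, TMM, quasi-likelihood, two-sided, Benjamini-Hochberg over all genes of a class). DESeq2 1.42.0 and the other settings given at the end were alternatives. The fit was also run on counts simulated at a fixed dispersion, which does not show how it performs on the spread between these libraries. Interaction p-values come from the same edgeR test on 8 sums with library as a term.

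Named genes are the 10 members, listed pathway genes called in a class or otherwise up to 3 with the smallest p, and the 3 genes most alike each member. Pathway genes called by DESeq2 alone were named after their values were seen. The members and lists were chosen with earlier results of these data known. RefSeq promoter windows were given for 7 of the 10 members. Shares of cells cover counting error only through their range over libraries, since UMI depth differs between classes.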

Additional observations from a re-analysis of the deposited data

Results flagged for a closer look

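The effect of BPTES on Apln differed between capillary classes in an interaction test, at -0.96 on the log2 scale for aerocytes minus general capillary cells. Nrp2 differed in the same test, at -3.98. Both calls were lost with the genes kept in the clustering, at -0.50 (edgeR adjusted p = 0.505) for Apln and -3.78 (edgeR adjusted p = 0.0979) for Nrp2. The interaction was not fitted at the other clustering resolutions, and at resolution 2 the Apln value in general capillary cells was -0.10. In each library 5 cells held 48.0% to 55.6% of the Apln UMIs of general capillary cells. When a library was left out the Nrp2 value ran from -4.90 to -2.59, the latter without DMSO library 1. Less the Nrp2 UMIs of the 5 richest aerocytes, with the class total unchanged, Nrp2 in DMSO library 1 was at 3.17 CPM in place of 19.7 CPM.

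For 6 of the 10 genes both BPTES libraries lay above both DMSO libraries in a class and below them in another, beside 52.7% of all genes tested in at least 4 classes, and the difference between those classes was not tested. The count is near that share, so it does not set the 10 genes apart from other genes. The pair given for each gene is the widest among the 11 classes. Apln was 1.13 higher in general capillary cells (log2) and had a value of -2.84 in adventitial fibroblasts, -0.64 without the cluster led by Sult1e1. When a library was left out, Apln ran from 0.78 to 1.65 in general capillary cells and from -4.33 to -1.74 in adventitial fibroblasts. Kdr was 0.20 higher in general capillary cells, 0.12 without BPTES library 2 and 0.086 to 0.14 within the clusters of that class, and had a value of -0.51 in pericytes, where it stood at 5.36 to 8.01 CPM. Flt1 was 0.88 higher in pericytes, or 0.52 without DMSO library 1 and 1.42 without DMSO library 2. Its value in adventitial fibroblasts was -1.10, which was -0.22 without DMSO library 2 and -1.59 without the cluster led by Sult1e1. Of the 148 Flt1 UMIs of DMSO library 2 in adventitial fibroblasts, 104 lay in a cluster with 25 cells there. Flt4 was 0.097 higher in lymphatic cells, 0.042 without BPTES library 2 and 0.15 without BPTES library 1, and stood at -0.44 in alveolar fibroblasts, where it was at 0.454 to 0.687 CPM. Angpt1 was 0.069 higher in pericytes, with 0.036 to 0.11 when a library was left out, and stood at -1.02 in smooth muscle cells. Tek was 0.38 higher in adventitial fibroblasts, or 0.11 without the cluster led by Sult1e1, and stood at -1.16 in pericytes, or -0.67 without DMSO library 1.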

How the results depend on the processing

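Of the 84 tests of a gene within a class, edgeR called 0, and the count was also 0 with RLE size factors, a 5% mitochondrial limit, resolutions 0.5 and 2, another seed, the genes kept in the clustering, the arterial class without its Fabp4-led cluster, the adventitial class without its Sult1e1-led cluster and each general capillary cluster alone. It was 16 with no low-count filter, 6 with DESeq2, 1 with doublets kept (Flt1 in AT2 cells), and 1 to 8 when a library was left out, with the most without BPTES library 1. Genes called in the difference between aerocytes and general capillary cells numbered 1, 2 with no low-count filter (Apln, Tek), 1 to 2 when a library was left out and 0 with the genes kept in the clustering. The count of genes highest in endothelium was 8 throughout, while of 120 alternative levels in the highest class 99 moved by less than the SD over libraries and 21 by more. The cause of each difference was not tested.

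The 30 results followed over the settings were the 26 pairs with an unadjusted p under 0.05 and the Apln, Aplnr, Tek and Nrp2 interaction values. They were picked for their differences in these same data, so the count of sign changes does not describe the other tests. The log2 fold change changed sign in 10 of 442 alternative values over these 30 results. Aplnr in general capillary cells was -0.058 within the cluster of 4497 cells, Apln there was -0.10 at resolution 2 and Angpt1 there was 0.13 in the cluster of 313 cells. Aplnr in arterial cells was 0.81 at resolution 2, 0.67 with the genes kept in clustering and -2.30 to 0.19 when a library was left out. Kdr in arterial cells was 0.048 with another seed. Flt1 in lymphatic cells was 0.32 with doublets kept and -1.85 to 0.053 when a library was left out, and the Tek interaction was -0.10 to 0.89 when a library was left out.

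Calls over all genes varied more, from 0 in general capillary cells to 2218 without BPTES replicate 1, and in alveolar fibroblasts from 35 to 0 with doublets kept and 933 with no low-count filter. Arterial calls went from 46 to 1 without the Fabp4-led cluster, an alternative added after seeing the data, 353 with no low-count filter and 258 with the crossed block, and interaction calls from 82 to 3 with the genes kept in the clustering and 378 with no low-count filter. In each other class the highest count was over 1.5 times that of the reported fit: from 13 to 441 in aerocytes, 0 to 389 in venous, 63 to 420 in lymphatic, 0 to 287 in pericyte, 0 to 166 in smooth muscle, 0 to 149 in AT1, 52 to 315 in AT2 and 2 to 750 in adventitial cells. With doublets kept the counts were 0 in aerocytes and lymphatic cells, 6 in arterial and 19 in AT2 cells.

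Libraries share replicate numbers, and the labels do not say whether same-numbered libraries were processed together. The deviations of same-numbered libraries correlated at -0.158 (pericytes) to 0.183 (general capillary cells), with 0.0924 in alveolar fibroblasts. With the replicate number as a block edgeR called 3 pairs (Angpt1 in general capillary cells, Angpt1 and Vegfa in alveolar fibroblasts), and 1071 genes in general capillary cells and 602 in alveolar fibroblasts. With the pairing crossed, added after seeing the data, edgeR called 1 pair (Angpt1 in arterial cells), and 0 genes in general capillary cells and 75 in alveolar fibroblasts. Whether libraries of the same number share a processing effect was not tested. AT1 cells numbered 24 and smooth muscle cells 30 in their smallest libraries, and the median depth of AT1 cells was 2930 UMIs.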

Other observations

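Some leukocyte classes carried transcripts of these genes above the B cell level. Non-classical monocytes had Vegfc at 89.1 ± 12.2 CPM and neutrophils Vegfa at 272 ± 45.7 CPM (SD, n = 4), and the latter compares with 7.34 ± 1.24 CPM in B cells. Among macrophages, those of the alveoli had Flt1 at 224 ± 95.1 CPM.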
